A study of Mus musculus with 11 samples.

Results

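The feedback genes of the ERK pathway followed here were Dusp4, Dusp5, Dusp6, Spry1, Spry2, Spry4, Etv4, Etv5, Spred1 and Spred2. They were taken by symbol, through the Ensembl identifiers of the mouse GENCODE annotation for GRCm38, and make up 10 of the 39179 genes in the deposited table. The study measured poly(A) RNA by RNA-seq in C57BL/6 mouse cells labelled as knockout for Mettl3, the catalytic subunit of the enzyme that writes N6-methyladenosine on messenger RNA, and in wild-type cells. Mettl3 knockout (KO) embryoid bodies (EBs) and wild-type (WT) EBs had 2 libraries each, labelled A and B. KO embryonic stem cells (ESCs) and WT ESCs had 3 libraries each, labelled A, B and C. EBs, which are floating aggregates of differentiating cells, were grown for 8 to 21 days in medium with fetal serum. All ESC libraries carry 1 culture description, which is serum-free medium with LIF, 1 µM of the MEK inhibitor PD0325901 and 1 to 3 µM of the GSK3 inhibitor CHIR99021. Replicate C of both ESC genotypes was measured alongside a SILAC protein assay, and no medium of its own is given in the labels. The labels do not say how many KO clones were used, and P values measure only the spread between these libraries.

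ERK is the last kinase of a cascade that starts at growth factor receptors and runs through RAS, RAF and MEK. Active ERK switches on genes whose products restrain it: DUSP phosphatases remove the activating phosphates from MAP kinases, while Sprouty and SPRED proteins act between the receptor and RAF. ETV4 and ETV5 are transcription factors of the PEA3 group of the ETS family and are widely used, with Spry4 and Dusp6, as readouts of FGF signalling. In mouse ESCs, FGF4 acting through ERK favours exit from naive pluripotency, and a MEK inhibitor is used in culture to hold that step back.

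Promoter sequences from RefSeq (GRCm38.p6) were at hand for 7 of the 10 genes. The 250 bases before the RefSeq start site are shown for 4 of them. Dusp5, Dusp6 and Spry2 were higher in ESC replicate C than in A and B, and Etv5 was not called in that comparison. The Dusp5 stretch is chr19:53528895-53529144 on the plus strand and the Dusp6 stretch is chr10:99262981-99263230 on the plus strand. The Spry2 stretch is chr14:105896820-105897069 on the minus strand, and the Etv5 stretch, at the outer of its RefSeq starts, is chr16:22439571-22439820 on the minus strand. The Dusp5 and Etv5 stretches reach into the genes as annotated in GENCODE, which start at 53529109 and 22439719. Distances of motifs are counted from the RefSeq starts. All are printed 5′ to 3′, and capitals mark CArG boxes, the sequence bound by serum response factor, and GC boxes.
Dusp5: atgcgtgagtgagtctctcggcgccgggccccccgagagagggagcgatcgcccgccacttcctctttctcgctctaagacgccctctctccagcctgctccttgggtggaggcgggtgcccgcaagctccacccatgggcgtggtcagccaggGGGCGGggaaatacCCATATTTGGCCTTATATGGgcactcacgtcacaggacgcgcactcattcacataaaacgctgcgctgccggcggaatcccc
Dusp6: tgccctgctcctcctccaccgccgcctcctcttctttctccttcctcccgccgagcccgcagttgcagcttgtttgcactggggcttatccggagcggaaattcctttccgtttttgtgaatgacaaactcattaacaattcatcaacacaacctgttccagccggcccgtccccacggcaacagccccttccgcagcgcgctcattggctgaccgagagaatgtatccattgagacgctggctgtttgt
Spry2: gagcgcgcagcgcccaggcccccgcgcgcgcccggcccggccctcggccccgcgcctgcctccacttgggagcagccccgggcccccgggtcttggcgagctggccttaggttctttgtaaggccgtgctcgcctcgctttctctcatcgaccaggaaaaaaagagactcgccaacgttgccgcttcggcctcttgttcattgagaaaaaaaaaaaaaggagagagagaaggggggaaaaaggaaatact
Etv5: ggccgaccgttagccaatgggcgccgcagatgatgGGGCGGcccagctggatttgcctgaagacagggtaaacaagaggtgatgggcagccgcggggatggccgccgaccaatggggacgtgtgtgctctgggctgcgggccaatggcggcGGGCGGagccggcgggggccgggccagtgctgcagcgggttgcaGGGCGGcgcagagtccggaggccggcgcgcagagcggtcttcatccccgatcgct

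Both strands were searched for 4 motifs, the CArG box, the GC box GGGCGG, the ETS core CCGGAA and the AP-1 site TGANTCA. Dusp5 held a pair of adjoining CArG boxes, which begin 82 and 72 bases before the start, and a GC box 96 bases before it. A CArG box occurred in 1.47% of 32851 promoters of the same length and in none of the other members' windows. The ETS core occurred in 12% of those promoters and the AP-1 site in 6.75%, and neither was found in the windows of the 7 members. The GC box occurred in 32.7% of promoters and in Dusp5, Spry1, Etv5, Spred1 and Spred2. These are matches of letters only.

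The libraries differed in depth. Reads assigned to genes numbered 3026837 to 3075007 in the replicate C libraries and 8523027 to 15426894 in the other 8. A count of 3 reads corresponds to 8.33 to 9.88 normalized counts in replicate C and to 1.63 to 2.72 elsewhere, for counting error only. Mettl3 had 154 and 147 normalized counts in KO EBs against 399 and 368 in WT EBs. It had 138, 133 and 131 in KO ESCs A, B and C against 422, 392 and 425 in WT ESCs, and was lower in every KO library. Replicate C stood apart: 71.3% of 15781 tested genes differed between it and A and B (limma, adjusted p under 0.05), so C, A with B, and the EBs are shown apart. In such bulk samples, fewer cells of a type and less RNA per cell cannot be told apart.

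**Figure D1:**
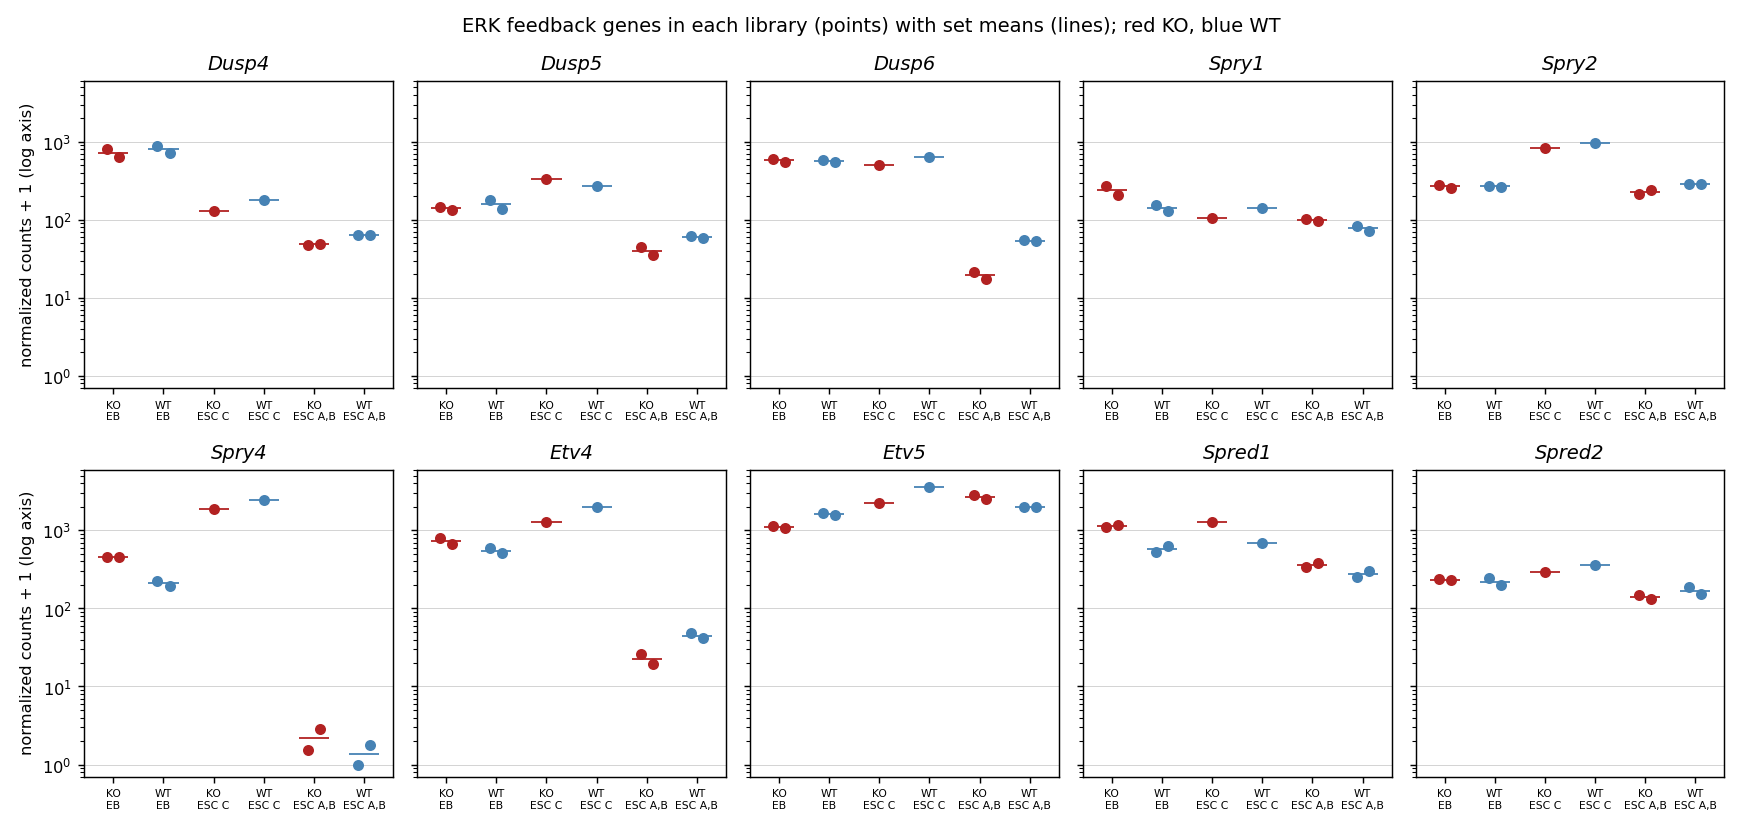
Normalized counts plus 1 on a log axis for the 10 genes in each library (points), with the mean of each set (lines), KO in red and WT in blue. Spry4 sits under 2 normalized counts in ESC replicates A and B of both genotypes and at 1897 in KO and 2447 in WT ESC replicate C.

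The DUSP genes were lowest in ESC replicates A and B. Dusp6, which encodes the cytoplasmic phosphatase selective for ERK (ENSMUSG00000019960, chromosome 10, 99263231 to 99267489, plus strand), had 596 and 555 normalized counts in KO EBs and 589 and 545 in WT EBs. In ESCs it had 499.9 in KO replicate C and 629 in WT replicate C, then 20.7 and 16.3 in KO A and B and 53.7 and 52.7 in WT A and B. The EBs and replicate C thus lay far above A and B in both genotypes, and within A and B both KO libraries were below both WT libraries.

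Dusp4, a nuclear MAP kinase phosphatase (ENSMUSG00000031530, chromosome 8, 34807297 to 34819894, plus strand), had 810.1 and 628 normalized counts in KO EBs and 888 and 719 in WT EBs. It had 128 in KO ESC C and 178 in WT ESC C, against 46.8 and 48.1 in KO ESC A and B and 62.2 and 62.6 in WT ESC A and B. Its highest level was therefore in EBs, with replicate C in between.

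Dusp5, a nuclear phosphatase selective for ERK (ENSMUSG00000034765, chromosome 19, 53529109 to 53542431, plus strand), had 145 and 132 normalized counts in KO EBs and 179 and 135 in WT EBs. ESC replicate C held the most, with 336 in KO and 270.1 in WT, against 44.1 and 34.5 in KO A and B and 61.5 and 57.2 in WT A and B. In the annotation 22.1% of its exon bases overlap an antisense gene, AC137853.2, and the library kit does not keep the strand, so reads of the pair cannot be told apart.

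The Sprouty genes differed among themselves. Spry4 (ENSMUSG00000024427, chromosome 18, 38586247 to 38601415, minus strand) had 449.9 and 451 normalized counts in KO EBs and 227 and 195 in WT EBs. In ESC replicate C it had 1897 in KO and 2447 in WT. In ESC A and B it rested on 1 and 2 reads in KO and on 0 and 1 read in WT, which is 0.54 and 1.82 normalized counts in KO and 0 and 0.76 in WT. Spry4 was therefore at or under the 3-read floor in all 4 A and B libraries and abundant in the other 6.

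Because those counts are so small, ratios of Spry4 were taken from summed reads scaled by the size factors, with exact binomial 95% intervals that cover counting error only. EBs over ESC A and B gave 441 in KO (interval 151 to 2142) and 574 in WT (interval 103 to 22720). Replicate C over A and B gave 1858 in KO (interval 633 to 9033) and 6628 in WT (interval 1186 to 262131). The intervals of the genotypes overlap in both comparisons.

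Spry2 (ENSMUSG00000022114, chromosome 14, 105891947 to 105896819, minus strand) had 276 and 258 normalized counts in KO EBs and 274 and 261 in WT EBs. Replicate C had 833 in KO and 955 in WT, while A and B had 216 and 239 in KO and 283 and 286 in WT. EBs and ESC A and B were thus at like levels, and replicate C alone was high.

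Spry1 (ENSMUSG00000037211, chromosome 3, 37639947 to 37644598, plus strand) had 269 and 208 normalized counts in KO EBs and 155 and 128 in WT EBs. It had 106 in KO and 142 in WT replicate C, against 102 and 95.4 in KO A and B and 81.5 and 71.8 in WT A and B. KO EBs held the highest values, and the EB genotypes did not overlap. Antisense gene Gm42922 overlaps 24.4% of its exon bases, with the same limit on strand as for Dusp5.

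Etv4 and Etv5, close relatives, behaved differently. Etv4 (ENSMUSG00000017724, chromosome 11, 101769742 to 101785371, minus strand) had 795 and 664 normalized counts in KO EBs and 587 and 509.6 in WT EBs. It had 1266 in KO and 1986 in WT replicate C, against 25.0 and 18.2 in KO A and B and 47.2 and 40.5 in WT A and B. KO was above WT in EBs and below WT in each ESC set.

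Etv5 (ENSMUSG00000013089, chromosome 16, 22381309 to 22439719, minus strand) had 1139 and 1085 normalized counts in KO EBs and 1659 and 1554 in WT EBs. It had 2249.7 in KO and 3649.8 in WT replicate C, against 2809 and 2505 in KO A and B and 2008 and 1978 in WT A and B. It was high in every library, A and B included, and KO was above WT only in ESC A and B.

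The products of the SPRED genes recruit neurofibromin to restrain RAS. Spred1 (ENSMUSG00000027351, chromosome 2, 117121374 to 117182279, plus strand) had 1110.2 and 1167 normalized counts in KO EBs and 526 and 629 in WT EBs. It had 1269 in KO and 695 in WT replicate C, against 343 and 378 in KO A and B and 252 and 305 in WT A and B. KO exceeded WT without overlap in each of these sets.

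Spred2 (ENSMUSG00000045671, chromosome 11, 19924375 to 20024026, plus strand) had 235 and 228 normalized counts in KO EBs and 242 and 197 in WT EBs. It had 289 in KO and 362 in WT replicate C, against 148 and 133 in KO A and B and 185 and 152 in WT A and B. Replicate C was again the highest set in each genotype.

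Levels between genes were compared per kb of exon, as mean normalized counts per kb. Etv5 ranked first of the 10 in all 6 sets, with 271 in KO EBs, 391 in WT EBs, 548 in KO ESC C, 890 in WT ESC C, 648 in KO ESC A and B and 486 in WT ESC A and B. Spry2 ranked second in ESC A and B, with 109 in KO and 136 in WT, whereas Etv4 ranked second in replicate C, with 408 in KO and 640 in WT. Dusp4 ranked second in EBs, with 262 in KO and 293 in WT, and its range over the KO libraries, 229 to 296, overlaps that of Etv5, 264 to 278. Spry4 ranked last in ESC A and B, with 0.25 in KO and 0.080 in WT.

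**Figure D2:**
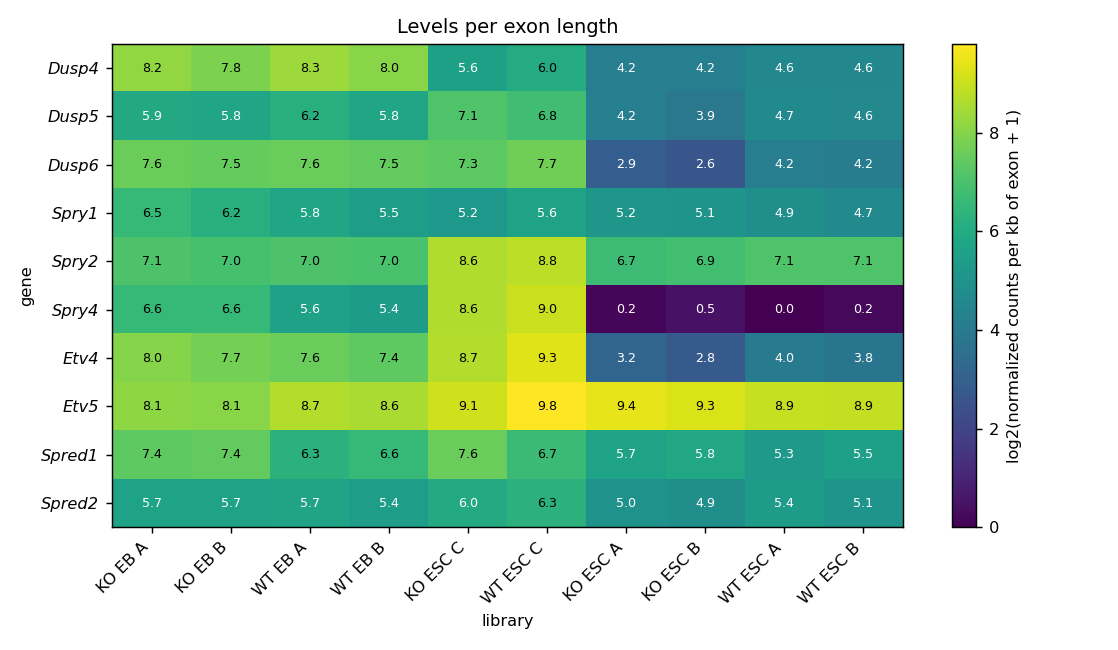
Heat map of log2(normalized counts per kb of exon + 1) for the 10 genes (rows) in the 10 libraries (columns). Etv5 is bright in every column, and Spry4 is near 0 in the 4 columns of ESC replicates A and B.

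Differences were tested in 1 limma fit across 15781 genes on log2(normalized counts + 1), with group means and a term for replicate C. All 10 genes passed the filter on low values. Log2 differences below come with the SE of the fit and the adjusted p, and for low genes such as Spry4 the added 1 understates the change. EB and replicate C comparisons share the ESC A and B libraries. Without the term for replicate C, its distance from A and B enters the error. In EBs against ESCs, C then also counts in the ESC mean, so the differences themselves change. Calls of the 10 genes in EBs against ESCs, in KO against WT and in the difference of the KO effects were then lost, except 1. That was Dusp4 in WT EBs against ESCs (adjusted p = 0.039). Scaled by total reads, the share of called genes that were higher was 56.9% in KO against WT EBs, 63.8% in KO against WT ESCs, 60.9% in KO EBs against ESCs and 68.9% in WT EBs against ESCs, whereas the authors' scaling gave 43.3%, 49.0%, 44.3% and 51.5% in the same order.

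Replicate C was compared first with A and B over both genotypes, because the MEK inhibitor is in the description of all these libraries. In C, 8 of the 10 genes were higher and 0 were lower, against a background of 29.8% of tested genes higher, 41.5% lower and 71.3% in either direction. The median log2 difference was 1.69 for the 10 genes and -0.22 for all tested genes. Spry4 was higher by 10.34 (SE 0.35, adjusted p = 5.8e-08), Etv4 by 5.65 (SE 0.17, adjusted p = 2.8e-08) and Dusp6 by 4.12 (SE 0.24, adjusted p = 1.5e-06). Dusp5 was higher by 2.62, Spry2 by 1.81, Spred1 by 1.57, Dusp4 by 1.45 and Spred2 by 1.07, with adjusted p from 8.1e-07 to 0.00014.

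The other pair did not pass in this comparison. Spry1 had a log2 difference of 0.49 (SE 0.21, adjusted p = 0.063) and Etv5 of 0.32 (SE 0.21, adjusted p = 0.21). Etv5 pooled opposite signs: with a mean for each set, C minus A and B was -0.24 in KO (adjusted p = 0.045) and 0.87 in WT (adjusted p = 3.7e-05), where 1 library stands for C and is assumed to vary like the pairs. In those fits 76.4% of genes in KO and 75.0% in WT were called. With 1 C library left out, the term for C rests on the other library alone and returns the value of its genotype. The Etv5 values of -0.24 without WT replicate C and 0.87 without KO replicate C are therefore no further check. Spry1 in WT alone was at 0.88.

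Markers of other cells also moved with the sets. The summed level of 10 fibroblast markers was 2265 to 2324 normalized counts in KO EBs, 3305 to 3344 in WT EBs, 192 in KO ESC C, 237 in WT ESC C, 11174 to 11455 in KO ESC A and B and 6637 to 6769 in WT ESC A and B. Of these, Dcn and Twist2 were at 0 in KO C, and Postn, Lum, Twist2 and Prrx1 in WT C. Thy1 went the other way in C. It had 97.2 in KO C against 29.4 and 30.9 in KO A and B, and 92.2 in WT C against 57.2 and 55.7 in WT A and B. Also against the sum, Thy1, Pdgfrb, Twist2 and Prrx1 were higher in EBs than in ESC A and B of both genotypes. The sum rests mostly on the collagen genes Col1a1, Col1a2 and Col3a1. The 11 naive ESC markers summed to 44299 in KO C and 71305 in WT C, against 48482 to 54636 in KO A and B and 35318 to 38678 in WT A and B, with none at 0. Members of this list moved both ways in both genotypes. In WT, Sox2 had 3913 in C against 9742 and 7709 in A and B, and Tfcp2l1 and Tbx3 were also lower in C. The other naive markers were higher in WT C, among them Pou5f1 at 28269 against 9280 and 8416. Sox2 was lower in KO C as well, at 4080 against 11678 and 9072 in KO A and B. Pou5f1 had 18170 in KO C against 9512 and 8389 in KO A and B. Tfcp2l1 had 1561 in KO C against 6553 and 6758, and Tbx3 had 381 against 2573 and 2278. The 5 formative or primed epiblast markers summed to 1799.7 in KO C and 1255 in WT C, against 557 to 604 in KO A and B, with Fgf5 at 0, and 498 to 602 in WT A and B. Most of the sum in KO C was Dnmt3b, at 1405 against 405 and 384 in KO A and B. Otx2 went the other way, at 52.8 in KO C against 124 and 122. The part of these markers and of depth in the feedback genes' differences was not tested.

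EBs were then set against ESC replicates A and B. That is serum medium without a labelled inhibitor against serum-free medium with LIF and inhibitors of MEK and GSK3. The stage of differentiation differs too, and the parts of medium and stage cannot be told apart. The ESC level of this fit comes from A, B and C, with 1 C shift shared by both genotypes. It therefore departs from the level of A and B alone where the C shift differed between genotypes. In KO, 8 of the 10 genes were higher and 1 was lower, against a background of 11.1% of tested genes higher, 14.0% lower and 25.1% in either direction. In WT, 7 were higher and 0 lower, against 13.0% higher, 12.2% lower and 25.2% in either direction. The median log2 difference of the 10 genes was 1.61 in KO and 1.33 in WT, while that of all tested genes was -0.05 in KO and -0.03 in WT.

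Spry4 was higher in EBs by 7.93 in KO (SE 0.39, adjusted p = 3.8e-05) and by 7.15 in WT (SE 0.39, adjusted p = 2.5e-05). Etv4 was higher by 4.97 in KO and 3.67 in WT, Dusp6 by 4.70 in KO and 3.58 in WT, and Dusp4 by 3.90 in KO and 3.64 in WT, with adjusted p from 7.9e-06 to 9.8e-05. Smaller differences were called for Spred1, 1.58 in KO and 1.13 in WT, and for Dusp5, 1.65 in KO and 1.53 in WT. The WT call of Dusp5 was not made with the replicate letter as a block (adjusted p = 0.054). In EBs against ESCs that block compares the fitted levels of letter A, not the group means. The blocked values of Spry1, Spred2 and Etv5 in EBs against ESCs have the same limit.

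Spry1 was higher in EBs by 1.39 in KO (SE 0.23, adjusted p = 0.0041) and by 0.74 in WT (SE 0.23, adjusted p = 0.048). The WT call of Spry1 ended with the block (adjusted p = 0.14) and when any library other than the C pair was left out in turn, with differences from 0.58 to 0.88. Spred2 was higher by 0.73 in KO (SE 0.15, adjusted p = 0.0095), with 0.37 in WT (adjusted p = 0.11). The KO call of Spred2 ended with the block (adjusted p = 0.053), without KO EB A (adjusted p = 0.073) and without KO EB B (adjusted p = 0.060).

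Etv5 was the exception in direction. It was lower in EBs by 1.07 on the log2 scale in KO, a difference of -1.07 (SE 0.23, adjusted p = 0.013), and differed by -0.50 in WT (SE 0.23, adjusted p = 0.16). Its KO call ended with the block (adjusted p = 0.13) and without KO ESC A, KO ESC B, KO EB A or KO EB B (adjusted p from 0.056 to 0.085). With both C libraries left out, the ESC level was that of A and B alone. Etv5 was then called lower in WT, at -0.31 (limma adjusted p = 0.011). Spry2 was not called, at 0.21 in KO (adjusted p = 0.19) and -0.07 in WT (adjusted p = 0.67).

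**Figure D3:**
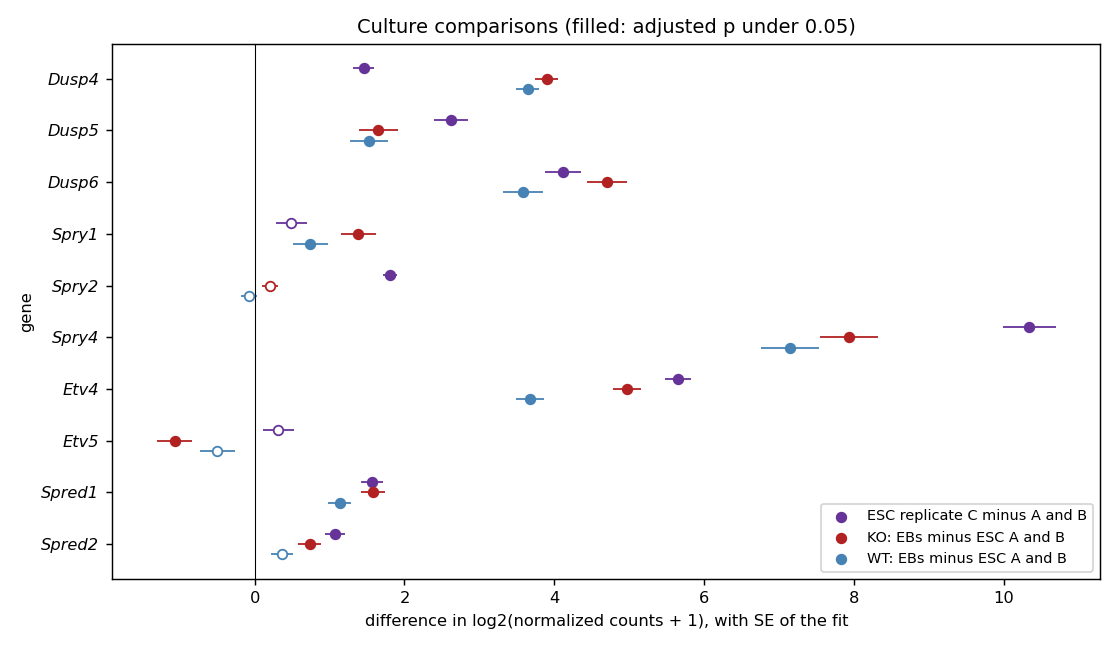
Log2 differences with the SE of the fit for ESC replicate C minus A and B, and for EBs minus ESC replicates A and B in KO and in WT, filled where the adjusted p was under 0.05. Spry4, Etv4 and Dusp6 lie farthest to the right in the C comparison, and only Etv5 has a filled point left of 0.

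EBs differed from replicate C as well, in a fit with a mean for each set, where 1 library stands for C in each genotype and is assumed to vary like the pairs. The background was 76.2% of genes called in KO and 77.0% in WT. Dusp4 was higher in EBs, by 2.47 in KO (SE 0.18) and 2.16 in WT (SE 0.18), and its adjusted p was 3.1e-06 in KO and 6.8e-06 in WT. Spry1 was higher in KO EBs by 1.16 (adjusted p = 0.00059), with -0.0076 in WT (adjusted p = 0.97). Spry4 was lower in EBs, at -2.07 in KO (adjusted p = 0.0013) and -3.53 in WT (adjusted p = 4.5e-05). Spry2 was likewise lower, at -1.64 in KO and -1.83 in WT, as were Etv5 at -1.02 and -1.18, Etv4 at -0.80 and -1.86 and Dusp5 at -1.27 and -0.79, each pair given for KO and then WT. Spred2 was at -0.32 in KO (adjusted p = 0.12) and lower in WT, at -0.73 (adjusted p = 0.0039). Dusp6 was not called, at 0.20 in KO (adjusted p = 0.26) and -0.15 in WT (adjusted p = 0.39), nor was Spred1, at -0.16 in KO (adjusted p = 0.36) and -0.27 in WT (adjusted p = 0.12).

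Loss of Mettl3 was examined in EBs and in ESCs. In EBs, 2 of the 10 genes were higher in KO and 0 lower, against a background of 12.7% of genes higher, 16.7% lower and 29.4% in either direction. Spred1 averaged 1138 ± 39.8 normalized counts in KO EBs and 577 ± 73.3 in WT EBs (SD, n = 2 each), a log2 difference of 0.98 (SE 0.17, limma adjusted p = 0.0039). Spry1 was higher by 0.74 (SE 0.24, adjusted p = 0.050, just under the threshold), and its call ended with the replicate block (adjusted p = 0.088) and when any of 8 single libraries was left out, all but the C pair, with differences from 0.56 to 0.93.

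Spry4 had the largest KO difference in EBs without passing the test, 1.09 (SE 0.40, adjusted p = 0.078). Its call was made when the EB libraries were fitted alone (adjusted p = 0.00032) and by edgeR on the recovered reads (adjusted p = 0.00099). It was also made without WT ESC A (adjusted p = 0.041), without KO ESC B (adjusted p = 0.038) and with both C libraries left out (adjusted p = 0.030). Etv5 differed by -0.53 (SE 0.24, adjusted p = 0.14). This fit shares 1 C shift between genotypes. The unlike C shifts of Etv5, -0.24 in KO and 0.87 in WT, therefore enter that SE. The Etv5 call was made in 5 of 23 alternatives. Among them were both C libraries left out (adjusted p = 0.00064) and the EB libraries fitted alone (SE 0.087, adjusted p = 0.0025). Leaving out 1 C library is no separate check, because the term for C takes up the other one. Etv4 differed by 0.41 (adjusted p = 0.15). The remaining 5 genes differed by -0.17 to 0.08.

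The EB genotypes also differed in makeup. The 10 extraembryonic endoderm markers summed to 858 to 860.2 normalized counts in KO EBs, with Afp at 0, against 69510.1 to 70464 in WT EBs. The naive ESC markers summed to 29096 to 33595 in KO EBs and 18021 to 20389 in WT EBs. Dppa3 of that list went the other way, at 37.4 and 34.8 in KO EBs and 53.6 and 49.1 in WT EBs. The formative or primed markers summed to 656 to 718 in KO EBs and 1299.8 to 1325 in WT EBs. Against that sum, Pou3f1 had 215 and 154 in KO EBs and 122 and 68.9 in WT EBs. Sox3 likewise had 19.1 and 10.2 in KO EBs and 7.66 and 7.75 in WT EBs. The part of these cell types in the Spred1, Spry1 and Spry4 differences was not tested.

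In ESCs, 1 of the 10 genes was higher in KO and 4 were lower, against a background of 18.1% of genes higher, 18.8% lower and 36.9% in either direction. Dusp6 differed by -1.10 (SE 0.22, adjusted p = 0.0068) and Etv4 by -0.88 (SE 0.16, adjusted p = 0.0040). Spred1 was higher by 0.54 (SE 0.14, adjusted p = 0.016), but not without WT ESC A (adjusted p = 0.056). Dusp4 at -0.42 (SE 0.13, adjusted p = 0.041) and Spry2 at -0.28 (SE 0.09, adjusted p = 0.040) were lower, although each call held in only 8 of 23 alternatives. The Dusp4 call ended without any one of 8 libraries, all but the KO EB pair (adjusted p from 0.050 to 0.10). The Spry2 call ended without any one of 8 libraries, all but the C pair (adjusted p from 0.065 to 0.15), and with the block (adjusted p = 0.057).

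The ESC sets gave different KO effects for 3 genes. With a mean for each set, 37.8% of all tested genes were called in this test of the difference, so 3 of 10 is not above the background. Each genotype has 1 library in C, and every SE and p that involves C takes its spread from the pairs of the other sets. Etv5 had a KO minus WT difference of -0.70 in C (SE 0.11, adjusted p = 0.0012) and 0.41 in A and B (SE 0.08, adjusted p = 0.0021), and these differed by -1.11 (SE 0.13, adjusted p = 0.00042). Dusp6 had -0.33 in C (adjusted p = 0.17) and -1.48 in A and B (SE 0.13, adjusted p = 3.1e-05), a difference between them of 1.15 (SE 0.22, adjusted p = 0.0040). Dusp5 had 0.31 in C (adjusted p = 0.34) and -0.59 in A and B (adjusted p = 0.019), a difference of 0.91 (SE 0.30, adjusted p = 0.043). The pooled ESC differences of Etv5, 0.04 (adjusted p = 0.89), and of Dusp5, -0.29 (adjusted p = 0.33), therefore averaged unlike values. In these separate sets, 45.9% of genes were called in C and 55.0% in A and B.

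The Dusp5 difference between the sets passed in 10 of 18 alternatives. It was not called by edgeR (adjusted p = 0.095), by DESeq2 (adjusted p = 0.29) or with no filter on low values (adjusted p = 0.056), nor without WT ESC A (adjusted p = 0.091), WT ESC B (adjusted p = 0.065), KO ESC B (adjusted p = 0.10), KO EB A (adjusted p = 0.060) or KO EB B (adjusted p = 0.061). With the block, Spry1 (-0.78, adjusted p = 0.0015), Spry4 (-1.02, adjusted p = 0.0034), Etv4 (0.35, adjusted p = 0.045) and Spred1 (0.49, adjusted p = 0.00055) also passed. Without a block these had adjusted p from 0.054 to 0.38. Spred1 was higher in KO in both sets, by 0.87 in C (adjusted p = 0.0037) and 0.38 in A and B (adjusted p = 0.027), and Etv4 was lower in A and B at -1.0 (adjusted p = 0.0012) with -0.65 in C (adjusted p = 0.053).

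The KO effect in EBs was compared directly with that in ESCs. Etv4 was the 1 gene of the 10 that passed, with the EB effect 1.29 above the ESC effect (SE 0.25, adjusted p = 0.013), against a background of 5.57% of genes higher, 8.89% lower and 14.5% in either direction. The call was not made without WT EB B (1.19, adjusted p = 0.071) or KO EB A (1.16, adjusted p = 0.074). Dusp6 had 1.12 (SE 0.35, adjusted p = 0.074), and 1.5 with both C libraries left out (adjusted p = 0.00046). Etv5 had -0.57 (adjusted p = 0.27) and Spred1 0.44 (adjusted p = 0.22). With both C libraries left out these were -0.94 (adjusted p = 0.00033) and 0.61 (adjusted p = 0.024). The ESCs are then A and B alone, without the set in which the Dusp6 KO effect was -0.33. Leaving out 1 C library gives the same differences, because the term for C takes up the other one. Spry4 had 0.78 (adjusted p = 0.37), while edgeR gave 1.38 (adjusted p = 0.0089) and DESeq2 1.39 (adjusted p = 0.0022).

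**Figure D4:**
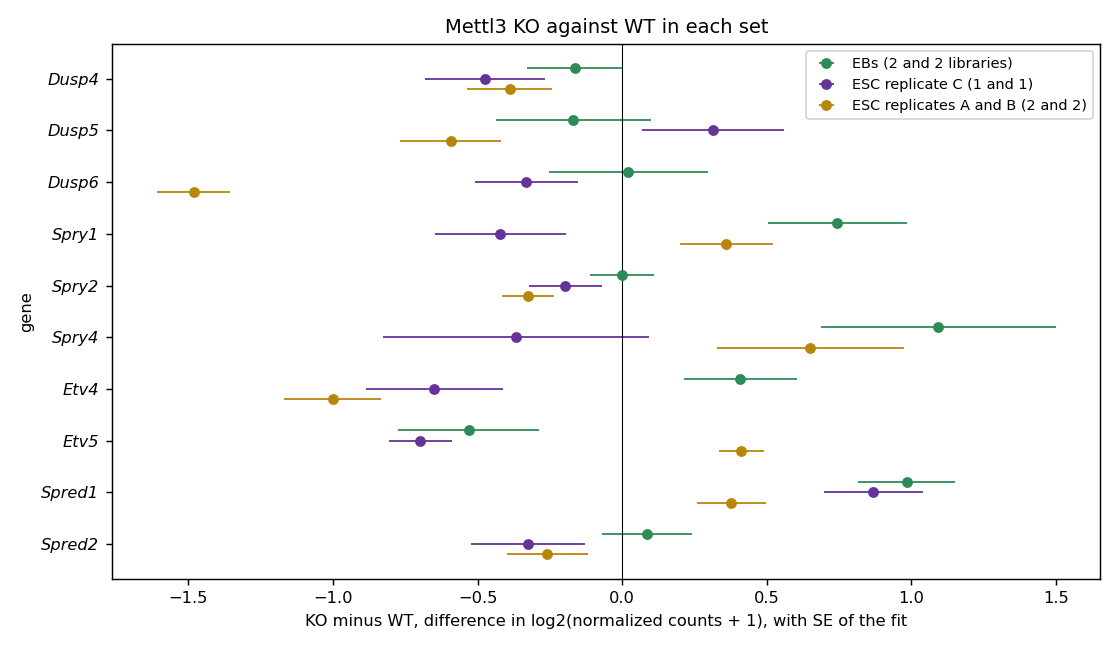
KO minus WT differences in log2(normalized counts + 1) with SEs, in EBs, in ESC replicate C and in ESC replicates A and B. The EB values come from the fit with group means and a term for replicate C. The values of both ESC sets come from the fit with a mean for each set. Bar lengths are therefore not comparable between EBs and the ESC sets. For Etv5 in EBs the SE was 0.24 as plotted and 0.077 with a mean for each set. Spred1 is right of 0 in all 3 sets, and Etv5 lies left of 0 in EBs and replicate C and right of 0 in A and B.

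Other genes of the pathway were counted for context, with the same backgrounds. Among 11 other genes induced by ERK, 10 were higher in replicate C than in A and B and 0 lower, Junb being the one not called. Of all tested genes, 29.8% were higher and 41.5% lower there. The growth factor response genes Egr1 and Myc were higher by 7.16 (SE 0.63, adjusted p = 1.7e-05) and 7.04 (SE 0.29, adjusted p = 1.9e-07), and Etv1, the third PEA3 factor, by 4.16. Egr1, an immediate early gene, had 15.5 and 11.9 normalized counts in KO EBs, 47.5 and 39.6 in WT EBs, 705 in KO ESC C and 122 in WT ESC C, against 0.54 and 2.72 in KO A and B and 2.15 and 0 in WT A and B. In EBs against A and B, 6 of the 11 were higher and 0 lower in each genotype. The background was 11.1% higher and 14.0% lower in KO, and 13.0% higher and 12.2% lower in WT. Between KO and WT EBs, Etv1 at 1.81 and Ccnd1 at 0.49 were higher, while Ier3 at -2.05, Phlda1 at -1.76, Fos at -1.56 and Junb at -0.80 were lower. The background was 12.7% higher and 16.7% lower. Between KO and WT ESCs, 1 was higher, Ccnd1 at 0.33, and 0 were lower, against a background of 18.1% higher and 18.8% lower.

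Ligands and receptors had 10 tested genes of 12. In C against A and B, 3 were higher, led by the ligand gene Fgf15 at 5.19, and 3 lower, led by Egfr at -2.25. The background was 29.8% of tested genes higher, 41.5% lower and 71.3% in either direction. In EBs, 2 were higher and 2 lower in KO (background 11.1% and 14.0%), and 3 higher and 1 lower in WT (background 13.0% and 12.2%). The receptor gene Fgfr3 was higher there by 1.58 in KO and 3.21 in WT. Fgfr3 was lower in KO than in WT, at -3.99 in EBs (SE 0.30, adjusted p = 0.00012) and -2.36 in ESCs (SE 0.25, adjusted p = 0.00045). Its list had 1 gene higher and 3 lower in KO EBs (background 12.7% and 16.7%), and 2 higher and 2 lower in KO ESCs (background 18.1% and 18.8%). Fgf4, which encodes the main FGF made by ESCs, was higher in KO EBs by 0.84 (SE 0.15, adjusted p = 0.0045).

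All 21 genes of the kinase cascade were tested. In C against A and B, 10 were higher, led by Mapk3, which encodes ERK1, at 2.16 (SE 0.12), and 5 lower, led by the scaffold gene Ksr1 at -1.89. The background was 29.8% of tested genes higher, 41.5% lower and 71.3% in either direction. Taken in both directions, the calls of this list were near that background. In EBs against A and B, 2 were higher and 1 lower in KO (background 11.1% and 14.0%), and 3 higher and 1 lower in WT (background 13.0% and 12.2%). In KO against WT, 0 were higher and 6 lower in EBs, among them the adaptor gene Grb2 at -0.96 and Map2k1, which encodes MEK1, at -0.86. The background was 12.7% higher and 16.7% lower. In KO against WT ESCs, 4 were higher, led by the RAS activator gene Sos2 at 0.91, and 8 lower, led by Rps6ka2, which encodes a kinase activated by ERK, at -0.86. The background was 18.1% higher and 18.8% lower.

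Other brakes on the pathway had 13 tested genes of 15, called in both directions in each comparison given here. In C against A and B, 5 were higher, among them Dusp1 at 2.65 and Dusp9 at 2.23, and 7 lower, among them the ubiquitin ligase gene Cbl at -2.79 and the neurofibromin gene Nf1 at -1.34. The background was 29.8% of tested genes higher, 41.5% lower and 71.3% in either direction. In EBs, 4 were higher and 3 lower in KO (background 11.1% and 14.0%), and 5 higher and 2 lower in WT (background 13.0% and 12.2%). Dusp9 was higher there by 1.55 in KO and 1.92 in WT. Dusp9, the phosphatase gene of this list with the largest KO difference, was lower in KO, at -2.35 in EBs (SE 0.21, adjusted p = 0.00022) and -1.99 in ESCs (SE 0.17, adjusted p = 0.00024). This list had 3 higher and 5 lower in KO EBs (background 12.7% and 16.7%), and 4 higher and 3 lower in KO ESCs (background 18.1% and 18.8%).

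For 3 of the feedback genes, the genes nearest in pattern were found by Pearson's r of log2 values over the 10 libraries, among 10082 tested genes with a mean of 100 or more. The points share depth and the split between sets. For Spry2, C lay above the rest, while for Dusp6 and Etv4 both C and the EBs lay above A and B. Etv4 was nearest to Porcn (r = 0.994), Utf1 (r = 0.990) and Grb7 (r = 0.986). Dusp6 was nearest to Manba (r = 0.975), Etv4 (r = 0.973) and Enpp3 (r = 0.970). Spry2 was nearest to the ribosomal protein gene Rpl23 (r = 0.996), the spliceosome gene Snrpg (r = 0.995) and Rpl23a (r = 0.995).

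Finally, the transcripts were searched for GGACT, the letters most often found around N6-methyladenosine, whose marks were not measured here. The longest annotated coding transcripts held from 0.418 matches per kb in Etv4 and 0.421 in Spry4 to 2.86 in Dusp6 and 3.35 in Spry2. The 13363 tested coding genes had a median of 1.06 and quartiles of 0.644 and 1.53.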

How the data were processed

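Poly(A) RNA-seq libraries were made with a TruSeq kit that does not keep the strand, per the labels' protocols. The submitters' processing notes name DESeq, HTSeq 0.6.0, TopHat2 2.0.10, Bowtie, CASAVA 1.8.2 and mm10. Annotation release, strand setting and filters are not given in the sources used here. The deposited values are a signal, gene counts that the authors divided by DESeq size factors. Whole reads were recovered for 100.0% of values (tolerance 0.01), and 5 summary lines were left out. Of all records, 34.0% to 38.8% per library fell in no gene. Symbols matched 37607 of 39179 genes (GENCODE M21).

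Genes with a mean of 10 or more (15781) were tested on log2(value + 1) with limma 3.58.1 (R 4.3.3), using 4 group means, 1 term for ESC replicate C, and trended, robust variances, with 5 residual degrees of freedom. A fit with 6 means (4 residual degrees of freedom) gave effects within replicate C. Tests were two-sided with Benjamini-Hochberg adjustment over all genes and a threshold of 0.05. Alternatives included a replicate block, other scalings, filters and pseudocounts, leaving out each library, and edgeR 4.0.16 and DESeq2 1.42.0 on the recovered counts. The fit was tested on simulated data.

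Replicate letters are shared in the labels. Across genes, the deviations of same-letter KO and WT ESC libraries from their group means correlated at r = 0.845 (A), 0.828 (B) and 0.858 (C). Crossed A and B libraries reached 0.809 and 0.812, so this rests mostly on C. After the term for C, same-letter values were -0.496 (A) and -0.515 (B), against -0.751 and -0.746 for crossed A and B. EB letters correlated at r = 0.369. With 2 libraries per EB group, A and B share that value, and the crossed value of -0.369 is fixed by it. Blocked values stand beside results where they change a call. All 10 members, up to 4 called genes per list and direction, and the 3 genes nearest to Dusp6, Spry2 and Etv4 could be named. The members and lists were chosen with earlier results of these data known. The fibroblast library is not analysed here.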

Additional observations from a re-analysis of the deposited data

Results flagged for a closer look

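Etv4 had a KO effect that differed between stages. KO minus WT was 0.41 in EBs and -0.88 in ESCs on the log2 scale, and the test of the difference gave 1.29 (SE 0.25, limma adjusted p = 0.013). KO was above WT in both EB libraries and below WT in 3 of 3 ESC letters.

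For 3 of the 10 genes the KO effect differed between ESC replicate C and ESC replicates A and B, while 37.8% of all tested genes were called in the same test. The difference was -1.11 for Etv5 (limma adjusted p = 0.00042), 1.15 for Dusp6 (adjusted p = 0.0040) and 0.91 for Dusp5 (adjusted p = 0.043). The Dusp5 call was made in 10 of 18 alternatives, and not by edgeR (adjusted p = 0.095) or DESeq2 (adjusted p = 0.29). Etv5 was lower in KO than in WT between the 2 libraries of C and higher in KO in A and B. These tests rest on 1 library per genotype in C, assumed to vary like the pairs of the other sets. The C libraries hold fewer reads than any other, and the part of depth in them was not tested.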

How the results depend on the processing

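Over the 10 genes, 1510 alternative values were computed. Of these, 1327 kept their direction and side of the threshold, 94 kept their direction but no longer passed, 58 newly passed and 31 changed sign. None of the 31 had passed in the fit reported, and 1 passed after the change, Etv5 in C against A and B without WT ESC C (-0.24). The 8 calls of C against A and B passed in all 21 alternatives, though with the replicate block C was set against letter A. Scaling by total reads moved the median of all genes to 0.10 in KO against WT ESCs, against -0.02 as deposited, and to -0.34 in C against A and B, against -0.22. The low depth of replicate C limits genes near its 3-read floor, and the cause of the changes below was not tested except where the setting itself states it.

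Without a term for replicate C, 290 genes were called in KO against WT EBs, 376 in KO against WT ESCs, 127 in KO EBs against ESCs, 75 in the difference of the KO effects and 392 in WT EBs against ESCs. Of the 10 genes, 1 was then called higher in WT EBs against ESCs, and 0 were called, higher or lower, in the other 4 of these comparisons. Spry2 in KO EBs against ESCs was then at -0.39.

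With the replicate block, 1314 genes were called in KO EBs against ESCs, 1230 in the difference of the KO effects, 9347 in the KO effect in C against A and B and 1503 in WT EBs against ESCs. Of the 10 genes, 1 was higher in KO against WT EBs, 0 were lower in KO EBs against ESCs, and 4 were higher and 3 lower in the KO effect in C against A and B. Spry2 in WT EBs against ESCs was at 0.010 with the block. The blocked EB against ESC values compare fitted levels of letter A, so their changes are not those of pairing alone. The block changed no call of the 10 genes beyond those given beside the results.

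With both C libraries left out, 8196 genes were called in KO against WT EBs, 7465 in KO EBs against ESCs, 5703 in the difference of the KO effects and 7278 in WT EBs against ESCs. With 6 means these counts were 8175, 7428, 5681 and 7230, and 9241 in KO against WT ESCs. In both settings 1 of the 10 genes was lower in KO against WT EBs, 1 was lower in WT EBs against ESCs, and 3 were higher and 1 lower in the difference. Without C, 2 were higher in KO against WT ESCs.

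The EB libraries alone gave 7768 genes in KO against WT EBs, with 4 of the 10 genes higher and 1 lower. The ESC libraries alone gave 3783 genes in KO against WT ESCs, with 0 of the 10 genes higher and 2 lower, and 2 lower in the KO effect in C against A and B. With edgeR, 2 were lower in KO against WT ESCs, 4 higher in KO against WT EBs, 2 higher in the difference, and 1 higher in the KO effect in C against A and B, where 2682 genes were called. With DESeq2, 3440 genes and 3 of the 10 were called in the difference, and 1536 genes and 1 higher in the KO effect in C against A and B.

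Without a filter, 1 of the 10 genes was higher in KO against WT EBs, 2 were lower in KO against WT ESCs and 1 was higher in the KO effect in C against A and B. A pseudocount of 0.5 left 1 higher in KO against WT EBs, and a pseudocount of 5 gave 2 higher in the difference. Scaling by TMM and by total reads each gave 2 lower in KO against WT ESCs.

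Besides the Spry2 values of -0.39 without the term for replicate C and 0.010 with the block, both changes of sign, signs changed outside leave-one-out fits for Spry4 in KO against WT ESCs, at -0.26 with edgeR and -0.30 with DESeq2, and for Spry2 in KO against WT EBs, at 0.028 with TMM, 0.12 with total reads, 0.029 with edgeR and 0.0035 with DESeq2. With total reads, signs also changed for Spry2 in WT EBs against ESCs, at 0.074, and for the KO effect in C against A and B, at 0.050 for Dusp4 and 0.068 for Spred2.

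Leaving out each library in turn, genes called ranged from 2149 to 8211 in KO against WT EBs, 1594 to 7467 in KO EBs against ESCs, 917 to 5707 in the difference and 1745 to 7274 in WT EBs against ESCs, lowest without an EB library and highest without a C library. Of the 10 genes, 1 to 3 were higher and 0 to 1 lower in KO against WT EBs, 0 to 2 higher and 2 to 4 lower in KO against WT ESCs, 0 to 1 lower in each EB against ESC comparison, 0 to 3 higher and 0 to 1 lower in the difference, 0 to 1 lower in C against A and B, and 1 to 2 higher and 1 to 2 lower in the KO effect in C against A and B. In KO against WT ESCs, Spry4 ranged from -0.033 to 0.65, Etv5 from -0.11 to 0.41 and Spry1 from -0.026 to 0.36. In KO against WT EBs, Dusp4 ranged from -0.35 to 0.020, Dusp5 from -0.37 to 0.034, Dusp6 from -0.034 to 0.078, Spry2 from -0.049 to 0.048 and Spred2 from -0.063 to 0.23. Dusp5 in the difference ranged from -0.081 to 0.42, Etv5 in C against A and B from -0.24 to 0.87, and Spred2 in the KO effect in C against A and B from -0.21 to 0.075.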
